A study of Mus musculus with 24 samples.

Results

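The transcriptome of invariant natural killer T (iNKT) cells at rest was compared between male mice under 2 fecal transplants (FT). The comparison took 6 of the 24 libraries of the study, chosen by their labels: 3 of KO FT males and 3 of WT FT males, all given PBS alone. KO FT mice were C57BL/6J offspring of dams that had received feces of CD1d-knockout donors, and WT FT mice were C57BL/6J offspring of dams that had received feces of wild-type donors. The sequenced mice themselves carried no knockout, so CD1d was absent from the donor of the feces and not from the recipients. All 6 libraries came from iNKT cells sorted from the mesenteric lymph nodes 24 h after an oral gavage of 200 µL PBS. The remaining libraries held females and mice given alpha-galactosylceramide (aGC, 2 µg), the lipid antigen of these cells, and enter here for contrast only. Whether the 3 libraries of each group stand for different mice, and how many mice or cells went into one, is not stated in the labels, so the p-values measure the spread between libraries, which may be technical. Effects of dam, litter and cage cannot be told apart from those of the transplant.

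iNKT cells are T cells whose semi-invariant receptor recognises lipids held by CD1d, an antigen-presenting molecule related to MHC class I. They divide into subsets resembling helper T cells: iNKT1 cells depend on T-bet and make interferon gamma, iNKT2 cells hold much PLZF and make IL-4, and iNKT17 cells make IL-17. Gut bacteria are known to affect how many iNKT cells settle in mucosal tissues and what those cells do there. The mesenteric lymph nodes drain the intestine and hold iNKT cells beside far more numerous conventional T cells, B cells and dendritic cells.

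The 3 KO FT libraries held 12268531, 27906841 and 10616109 estimated counts, and the 3 WT FT libraries 20966152, 17351977 and 21382056. Between 22478 and 26506 genes were detected in KO FT libraries and between 24507 and 25711 in WT FT libraries. Of 15953 genes tested, 6787 passed an adjusted p of 0.05 (42.5%), with 3366 higher in KO FT (21.1%), 3421 lower (21.4%) and a median log2 change of -0.01 over all genes. The 3 KO FT libraries stood above or below all 3 WT FT libraries in 53.7% of genes. Most changes were small: 2265 genes passed with a change of at least 2-fold, and 267 of these reached 10 CPM (counts scaled to the size of the library) in either group, 158 higher and 109 lower. Ddx3y, a Y-linked helicase gene, stood at 67.9, 78.6 and 78.2 CPM in KO FT and 44.0, 45.2 and 43.7 CPM in WT FT libraries, and Xist, the female inactivation RNA, at no more than 0.270 CPM in KO FT and 0.646 CPM in WT FT. Both groups stood apart from most of the series in Cd8a, a coreceptor gene that mouse iNKT cells lack: it averaged 136 CPM in KO FT and 287 CPM in WT FT males after PBS, 5.20 CPM in KO FT and 6.30 CPM in WT FT females after PBS, 7.59 CPM in KO FT and 6.21 CPM in WT FT males after aGC, and 189 CPM in KO FT and 245 CPM in WT FT females after aGC. All 6 libraries are concerned, so no result can be given without them.

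The invariant receptor itself did not separate the groups. Its alpha chain joins the variable segment Trav11 (ENSMUSG00000096615.1, chromosome 14, 53519303 to 53519859) to the joining segment Traj18 (ENSMUSG00000076911.1, chromosome 14, 54200777 to 54200842, both on the plus strand of GRCm38). The ends that meet in the receptor are shown here because they identify the cells. In GENCODE M21 the last 60 bases of Trav11 and of its duplicate Trav11d, and the whole of Traj18, read as follows, with capitals on the codons Cys-Val-Val-Gly at the end of the variable segments and on the Phe-Gly-Ala-Gly motif of the joining segment.
Trav11: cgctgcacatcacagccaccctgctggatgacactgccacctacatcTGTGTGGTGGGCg
Trav11d: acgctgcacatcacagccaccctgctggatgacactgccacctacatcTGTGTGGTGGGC
Traj18: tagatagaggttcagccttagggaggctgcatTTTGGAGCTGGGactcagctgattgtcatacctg
The 2 variable segments were identical over 342 shared bases and differ by 1 base in length, so reads cannot be told apart between them, and Trav11d was listed at 0 in all 6 libraries. Trav11 had 526, 505 and 523 CPM in KO FT and 540.5, 528 and 519 CPM in WT FT libraries. Traj18 had 72.3, 71.2 and 72.3 CPM in KO FT and 74.0, 73.2 and 78.2 CPM in WT FT libraries. The Trav11 ranges overlapped, the Traj18 values of KO FT lay just below those of WT FT, and neither gene passed, with log2 changes of -0.03 ± 0.05 (SE, adjusted p = 0.672) and -0.06 ± 0.06 (adjusted p = 0.387).

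Among the other genes of the receptor and of iNKT identity, PLZF and several surface markers were higher in KO FT males. Zbtb16, which encodes PLZF, the lineage factor of iNKT cells (ENSMUSG00000066687.5, chromosome 9, 48654297 to 48836222), had 84.9, 73.5 and 82.1 CPM in KO FT and 58.7, 57.6 and 54.1 CPM in WT FT libraries. Every KO FT library lay above every WT FT library, a log2 change of 0.49 ± 0.08 (adjusted p = 6.62e-05). Cd4, the coreceptor gene carried by many mouse iNKT cells, had 207, 204 and 236 CPM in KO FT and 159, 156 and 152 CPM in WT FT libraries, again without overlap (0.47 ± 0.09, adjusted p = 0.000234). Cd44, a marker of antigen-experienced T cells, Il2rb, the gene of the IL-2 and IL-15 receptor beta chain, and Klrb1c, which encodes NK1.1, had log2 changes of 0.66, 0.44 and 0.33. The beta chain segments moved unequally: Trbv1 and Trbv29 (Vβ2 and Vβ7) changed by 0.26 and 0.32, Trbv13-3 (Vβ8.1) by -0.71, and Trbv13-2, the dominant Vβ8.2, did not pass (280.4 CPM in KO FT and 259 CPM in WT FT, 0.11). The genes that passed downward included Lck, the kinase that starts receptor signals (-0.28), and Trac, the alpha constant region (-0.24). Over the list of 30 identity and receptor genes, 10 were higher, 6 were lower and 14 did not pass, with a median of 0.10 on the log2 scale (0.06 without KO FT library 2), beside 21.1% higher and 21.4% lower among all genes tested. Cd1d1, the gene of the presenting molecule, was present in both groups at 123 ± 9.33 CPM in KO FT and 116 ± 7.49 CPM in WT FT libraries (SD, n = 3 each) and did not pass (adjusted p = 0.334).

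**Figure D1:**
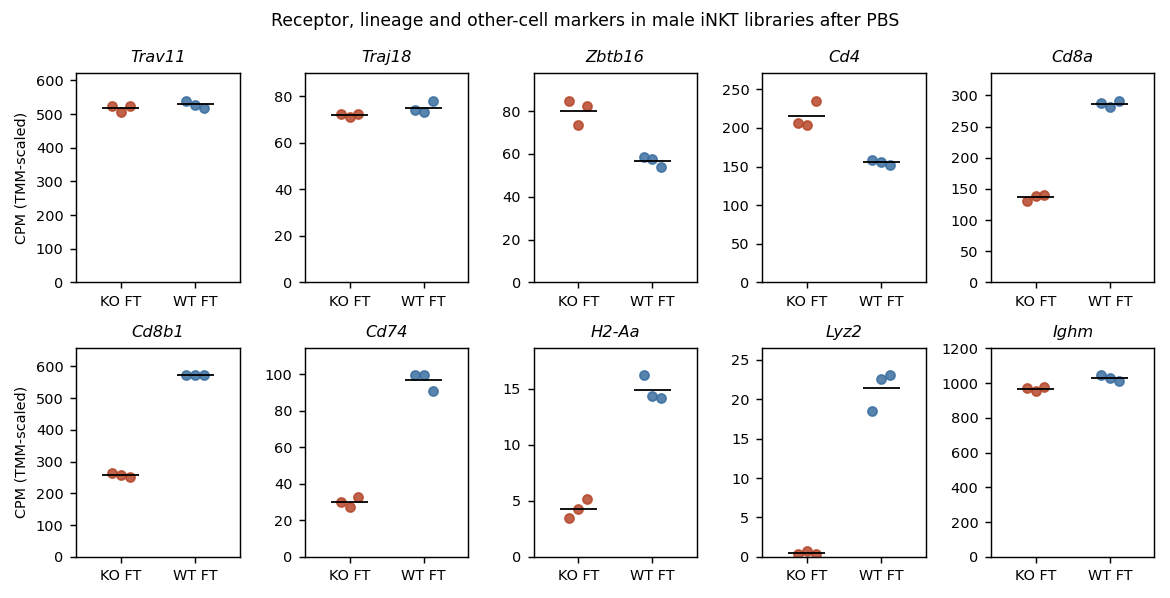
Levels in CPM (linear axis from 0) of 10 marker genes in the 3 KO FT (left) and 3 WT FT (right) male libraries after PBS, where points are libraries and bars are means. Trav11 and Traj18 are close between the groups, Zbtb16 and Cd4 are higher in KO FT, and Cd8a, Cd8b1, Cd74, H2-Aa and Lyz2 are lower in KO FT, while Ighm averages 968 CPM in KO FT and 1031 CPM in WT FT.

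Genes of conventional CD8 T cells were lower in KO FT males. The 2 chains of CD8 are encoded by Cd8a (ENSMUSG00000053977.13, chromosome 6, 71373427 to 71379173) and Cd8b1 (ENSMUSG00000053044.8, chromosome 6, 71322788 to 71337494). Cd8a had 131, 138 and 139.8 CPM in KO FT and 287, 281 and 292 CPM in WT FT libraries. Cd8b1 had 263, 258 and 253 CPM in KO FT and 573, 574 and 571 CPM in WT FT libraries. Neither gene overlapped between groups, and the log2 changes were -1.07 ± 0.06 (adjusted p = 1.42e-11) and -1.15 ± 0.04 (adjusted p = 6.78e-15). Of 6 CD8 T cell genes 0 were higher, 5 were lower (83.3%, beside 21.4% of all genes tested) and 1 did not pass. The summed level of the list was 559 to 587 CPM in KO FT and 1097 to 1130 CPM in WT FT libraries, beside 114 to 121 CPM in KO FT and 107 to 110.4 CPM in WT FT females after PBS. Dapl1, known from naive and memory CD8 T cells, fell with them (-1.01), and Eomes, a T-box factor of cytotoxic cells, had 9.52 CPM in KO FT and 8.75 CPM in WT FT and did not pass. In bulk RNA, fewer cells of a type and less RNA per cell cannot be told apart.

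The variable alpha segments that are not part of the invariant receptor were mostly lower where they passed. Of 126 such Trav genes 104 were tested, of which 7 were higher (4 without KO FT library 1 or 2 or WT FT library 1 or 2), 37 were lower and 60 did not pass, with a median log2 change of -0.47 (-0.45 with the 3 members that were 0 in KO FT set at their limit of 3 counts in a library). Of those tested 6.73% were thus higher and 35.6% lower, beside 21.1% and 21.4% of all genes. The summed level of these Trav genes was 235 to 246 CPM in KO FT and 346 to 355 CPM in WT FT libraries, which do not overlap. Trav7-4 had 8.37, 9.43 and 6.93 CPM in KO FT and 23.8, 23.2 and 22.8 CPM in WT FT libraries (-1.48). Many of these segments are near-identical copies, some with equal values in every library, so the split between single members is uncertain.

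Genes of naive and recirculating T cells were mixed, with more lower than higher. Klf2, a transcription factor that drives S1pr1 and other trafficking genes, had 126, 118 and 121 CPM in KO FT and 194, 178 and 179 CPM in WT FT libraries (-0.59 ± 0.06, adjusted p = 3.67e-08). S1pr1 itself, the receptor for leaving lymph nodes, and Ccr7, which guides T cells into the T cell zone, changed by -0.43 and -0.27, and Actn1 by -1.35. Il7r, the IL-7 receptor gene, and Satb1, a chromatin organiser, went the other way (0.52 and 0.26). Of 20 genes 5 were higher, 11 were lower and 4 did not pass (median -0.20). The shares of all genes tested were 21.1% higher and 21.4% lower. Only the lower share of the list was thus well above that of all genes. The part of the CD8 T cell genes in these results was not tested.

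MHC class II genes, which antigen-presenting cells such as dendritic cells and B cells use to show peptides to CD4 T cells, were lower in KO FT males as a group. All 10 genes of the list stood lower in every KO FT library than in any WT FT library, where 27.7% of all genes did, 9 of the 10 passed and the median log2 change was -1.22. The summed level was 190 to 214 CPM in KO FT and 375 to 403 CPM in WT FT libraries. Class II promoters are known for a conserved upstream module that ends in a Y box, the site of the factor NF-Y. The 3 promoters below hold its letters CTGATTGG, shown in capitals, within 120 bases before the gene's start (RefSeq, GRCm38.p6, 5′ to 3′ on the gene's strand).
H2-Aa, chr17:34287824-34287943, minus strand: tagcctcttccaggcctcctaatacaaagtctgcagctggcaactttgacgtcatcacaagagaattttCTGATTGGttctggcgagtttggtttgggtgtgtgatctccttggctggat
H2-Eb1, chr17:34305747-34305866, plus strand: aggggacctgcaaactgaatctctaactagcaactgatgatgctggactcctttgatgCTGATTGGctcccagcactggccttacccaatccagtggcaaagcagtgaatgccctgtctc
H2-Oa, chr17:34092259-34092378, plus strand: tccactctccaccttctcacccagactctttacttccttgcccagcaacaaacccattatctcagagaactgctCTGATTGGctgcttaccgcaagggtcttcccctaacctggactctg
These letters, searched on both strands of the 250 bases before the start, were found in 3 of the 7 list members with a promoter entry and in 4.43% of all 27025 genes with one, which is a description of the sequence alone. H2-Aa, the alpha chain of I-A, had 3.49, 4.26 and 5.16 CPM in KO FT and 16.2, 14.4 and 14.2 CPM in WT FT libraries (-1.80 ± 0.17, adjusted p = 4.92e-08). H2-Eb1, annotated as the beta chain of I-E, had 3.80, 2.16 and 2.04 CPM in KO FT and 13.6, 12.9 and 13.8 CPM in WT FT libraries (-2.35 ± 0.16, adjusted p = 5.25e-10). H2-Oa, a chain of the peptide-loading inhibitor H2-O, had 13.0, 12.3 and 13.8 CPM in KO FT and 24.3, 22.6 and 24.1 CPM in WT FT libraries (-0.87). All 3 genes were thus clearly apart between the groups, as was Cd74, the invariant chain that escorts class II molecules, at 30.1, 27.0 and 32.5 CPM in KO FT and 99.6, 99.4 and 90.8 CPM in WT FT libraries (-1.71 ± 0.08, adjusted p = 2.09e-13).

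Most markers of myeloid and B cells that passed were lower in KO FT. Lyz2, the lysozyme gene of macrophages and granulocytes (ENSMUSG00000069516.8, chromosome 10, 117277331 to 117282321), had 0.387, 0.676 and 0.356 CPM in KO FT and 18.5, 22.6 and 23.1 CPM in WT FT libraries, a log2 change of -5.31 ± 0.19 (adjusted p = 6.78e-15). Csf1r, the receptor that maintains macrophages, had 0 counts in all 3 KO FT libraries and 3.78, 3.88 and 5.01 CPM in WT FT libraries. Measured against 3 counts in the shallowest KO FT library it was at least 14.9-fold lower. Of 21 myeloid and dendritic cell genes 2 were higher (9.52%), 8 were lower (38.1%) and 11 did not pass, beside 21.1% and 21.4% of all genes tested. The sum of the list was 279 to 284 CPM in KO FT and 367 to 381 CPM in WT FT libraries. The exceptions were Cd14, a lipopolysaccharide coreceptor (5.22 CPM in KO FT and 0.960 CPM in WT FT), and S100a9, a granulocyte protein (1.19 CPM in KO FT and 0.109 CPM in WT FT). Most of the sum was Ctss and Cst3, a protease and a protease inhibitor that lymphocytes make too (128 and 120.1 CPM in KO FT, 172 and 133 CPM in WT FT). Among the defining markers, Adgre1 and Itgam were at no more than 0.178 CPM in any library, and Clec9a was at 0.

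Of 22 B cell genes 18 were tested, of which 3 were higher (16.7%), 10 were lower (55.6%) and 5 did not pass. Among all genes tested 21.1% were higher and 21.4% lower. The sum of the B cell list was 1221 to 1236 CPM in KO FT and 1323 to 1358 CPM in WT FT libraries. Most of that sum was Ighm, which had 970.4, 955 and 979 CPM in KO FT and 1048, 1029.9 and 1014 CPM in WT FT libraries and did not pass (adjusted p = 0.108). Pax5, the factor that defines B cells, was at 0 in all 6 libraries. Igkc, the kappa light chain, had 1.01, 1.93 and 1.33 CPM in KO FT and 11.3, 11.1 and 10.6 CPM in WT FT libraries (-2.89 ± 0.22, adjusted p = 1.28e-09), and Cd22, an inhibitory receptor of B cells, averaged 0.281 CPM in KO FT and 5.04 CPM in WT FT. Some immunoglobulin genes went the other way: Igha, the IgA constant region, had 10.7, 11.0 and 8.18 CPM in KO FT and 1.20, 0.998 and 1.52 CPM in WT FT libraries, and Iglc2, a lambda light chain, changed by 2.25. Of 6 plasma cell genes 3 were higher (1 without KO FT library 1 or 3 or WT FT library 1), 2 were lower (0 without any 1 of the KO FT libraries, 1 without any 1 of the WT FT libraries) and 1 did not pass.

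Foxp3, the factor of regulatory T cells, had 1.78, 3.01 and 3.47 CPM in KO FT and 18.0, 17.6 and 17.7 CPM in WT FT libraries (-2.68 ± 0.25, adjusted p = 7.13e-08), and of 8 regulatory T cell genes 2 were higher, 4 were lower and 2 did not pass. The summed level of that list, most of it Tnfrsf18 and Nt5e, was 770.3 to 792 CPM in KO FT and 773 to 819.6 CPM in WT FT libraries. Of 7 NK and innate lymphoid genes 2 were higher (1 without KO FT library 2) and 1 was lower, of 4 gamma delta T cell genes 1 was higher and 2 were lower, and of 5 stromal, epithelial and blood genes 4 were lower (2 without KO FT library 2) at a summed level of 3.64 to 4.62 CPM in KO FT and 8.63 to 12.8 CPM in WT FT libraries. How far these other cells contribute to the gene groups described next was not tested.

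**Figure D2:**
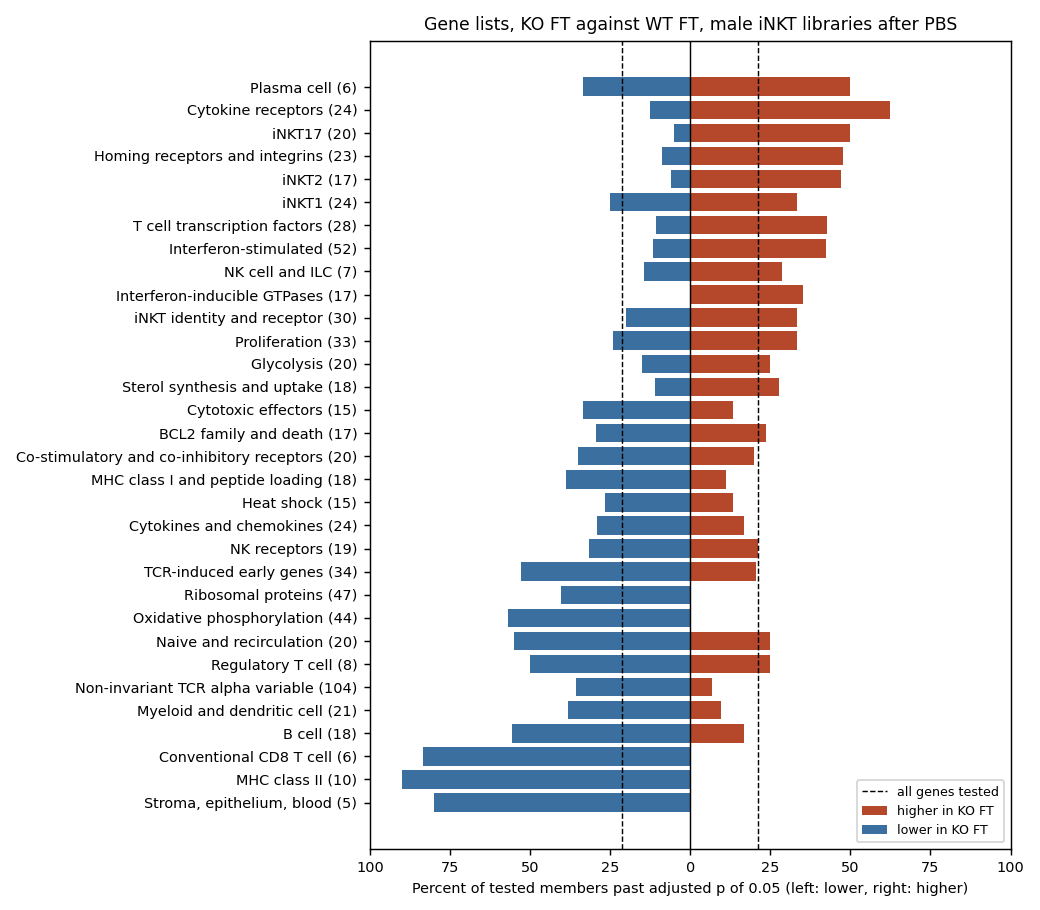
Percent of tested members of each gene list with at least 5 of them (number in brackets) that passed an adjusted p of 0.05 toward higher (right) or lower (left) levels in KO FT males after PBS, ordered by median change; dashed lines mark all genes tested, 21.1% higher and 21.4% lower. MHC class II and CD8 T cell genes lie far to the lower side, and 15 of 24 cytokine receptors lie on the higher side.

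The subsets of iNKT cells were read from their marker lists. Members of the iNKT2 and iNKT17 lists that passed were nearly all higher in KO FT males. Of 17 iNKT2 genes 8 were higher (47.1%), 1 was lower (5.88%) and 8 did not pass, beside 21.1% and 21.4% of all genes tested. The median of the iNKT2 list was 0.15, or 0.09 without KO FT library 2. The 1 lower gene was lost on leaving out any 1 library but KO FT library 2. Il17rb, the receptor gene for IL-25 that marks IL-25-responsive iNKT cells (ENSMUSG00000015966.17, chromosome 14, 29996135 to 30008896), had 288, 293 and 296 CPM in KO FT and 152, 147 and 156 CPM in WT FT libraries. The groups were far apart beside their spread, with a log2 change of 0.95 ± 0.05 (adjusted p = 2.85e-12). Ccr9, the receptor for the small intestinal chemokine CCL25, had 386, 419 and 396 CPM in KO FT and 235, 234 and 238 CPM in WT FT libraries (0.76 ± 0.05, adjusted p = 1.40e-10). Ccr4, Plac8 and Irf4 rose too (0.63, 0.48 and 0.64), while Gata3, the type 2 factor, and Il4 did not pass. Gata3 had 158 ± 4.42 CPM in KO FT and 170.5 ± 11.0 CPM in WT FT libraries, and Il4 35.8 ± 4.96 CPM in KO FT and 31.0 ± 1.69 CPM in WT FT libraries (adjusted p = 0.426 and 0.0514). Without KO FT library 3, Il4 did pass upward (adjusted p = 0.0150).

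Of 20 tested iNKT17 genes 10 were higher (50.0%), 1 was lower (5.0%) and 9 did not pass (median 0.23), beside 21.1% and 21.4% of all genes. Il23r, the IL-23 receptor, had 7.05, 9.20 and 10.2 CPM in KO FT and 2.90, 1.83 and 3.53 CPM in WT FT libraries (1.66 ± 0.19, adjusted p = 3.72e-07). The groups did not overlap for this gene. Il17a was at 0 in all 6 libraries and Ccr6, a homing receptor of IL-17 producers, had 3.91 CPM in KO FT and 4.17 CPM in WT FT. The 1 lower member was Itgae, the integrin chain CD103 that binds epithelial E-cadherin, at 30.4, 30.4 and 36.0 CPM in KO FT and 62.9, 66.2 and 62.1 CPM in WT FT libraries (-0.99 ± 0.10, adjusted p = 9.95e-08). Conventional CD8 T cells of lymph nodes carry CD103 as well.

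The 24 iNKT1 genes were split, with 8 higher, 6 lower and 10 not passing (median 0.14). The shares of all genes tested were 21.1% higher and 21.4% lower. The higher share of the list (33.3%) was thus above that of all genes, and the lower share was close to it. Tbx21, which encodes T-bet, had 353, 310.0 and 340.1 CPM in KO FT and 294, 305 and 276 CPM in WT FT libraries (0.20 ± 0.05, adjusted p = 0.00253), and it did not pass when no filter on low counts was used (adjusted p = 0.110). Txk, a kinase of the Tec family, was higher (0.33). Among the lower members, Ccl5, a chemokine of effector and memory cells, Klrd1, which encodes CD94, Ly6c2 and Nkg7 changed by -0.56, -0.61, -0.43 and -0.26. Ifng had 11.8, 13.1 and 13.4 CPM in KO FT and 14.9, 14.4 and 14.8 CPM in WT FT libraries and did not pass (-0.20, adjusted p = 0.116).

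Of the 33 gene lists, the cytokine receptors had the largest share of genes that were higher in KO FT males. Of 24 genes 15 were higher (62.5%), 3 were lower (12.5%) and 6 did not pass, with a median of 0.37 on the log2 scale. Among all genes tested 21.1% were higher and 21.4% lower. The pair of subunits that forms the IL-18 receptor rose together. Il18r1 had 34.6, 36.6 and 34.5 CPM in KO FT and 18.9, 17.2 and 19.1 CPM in WT FT libraries (0.94 ± 0.11, adjusted p = 1.07e-06). Il18rap had 61.5, 59.8 and 60.2 CPM in KO FT and 35.7, 33.3 and 34.3 CPM in WT FT libraries (0.81 ± 0.10, adjusted p = 2.26e-06). IL-18 is known to activate iNKT cells together with IL-12, and the IL-12 receptor genes Il12rb1 and Il12rb2 changed by 0.38 and 0.40. Il7r had 557, 644 and 571 CPM in KO FT and 388, 407 and 444 CPM in WT FT libraries (0.52 ± 0.08, adjusted p = 2.99e-05). Il2rb, needed for the response to IL-15, reached 1766 ± 90.8 CPM in KO FT and 1299 ± 34.5 CPM in WT FT libraries. Receptor chains for IL-17, TGF-β and interferons were higher as well, with log2 changes of 0.53 for Il17ra, 0.45 for Tgfbr2, 0.89 for Tgfbr1, 0.49 for Ifnar1 and 0.42 for Ifngr1. The 3 that fell were Il2rg, the common gamma chain shared by the receptors for IL-2, IL-7 and IL-15 (-0.27), Il27ra (-0.21) and Ifnar2 (-0.23). The 2 chains of the type I interferon receptor thus changed in opposite directions, although the libraries overlap for Ifnar2, which no longer passed without KO FT libraries 1 or 3 or WT FT libraries 2 or 3 (adjusted p = 0.123, 0.0631, 0.0698 and 0.0770).

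Of 23 homing receptors and integrins 11 were higher (47.8%), 2 were lower (8.70%) and 10 did not pass, beside 21.1% and 21.4% of all genes. The median of the list was 0.16, or 0.13 with Ccr10, at 0 in WT FT, set at its limit. Ccr2, which guides cells to inflamed tissue, had 129, 152 and 149.6 CPM in KO FT and 81.9, 95.4 and 90.6 CPM in WT FT libraries (0.69 ± 0.09, adjusted p = 3.74e-06). Itga1, the collagen-binding integrin CD49a of tissue-resident lymphocytes, had 9.92, 11.7 and 11.6 CPM in KO FT and 5.12, 5.93 and 3.58 CPM in WT FT libraries (1.19 ± 0.18, adjusted p = 1.96e-05). The abundant tissue receptors did not pass: Cxcr6 had 1798 ± 131 CPM in KO FT and 1656 ± 73.1 CPM in WT FT, Cxcr3 719 ± 24.2 CPM in KO FT and 666 ± 15.8 CPM in WT FT, and Itgb7, the beta chain of the gut integrin α4β7, 1685 ± 92.2 CPM in KO FT and 1809 ± 68.5 CPM in WT FT. Without KO FT library 1, Cxcr6 did pass (adjusted p = 0.0436). The 2 lower genes were Itgae and Cxcr5, the receptor for B cell follicles (-0.48), which no longer passed without WT FT library 3 (adjusted p = 0.0773).

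**Figure D3:**
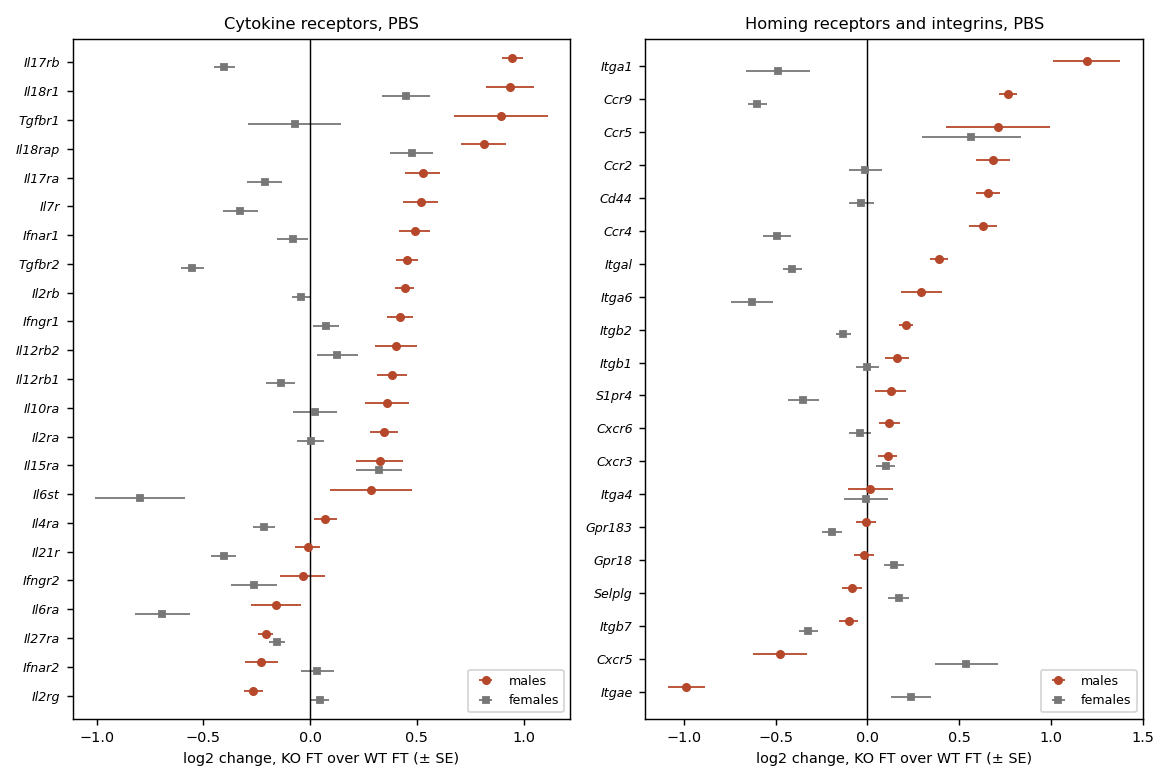
Log2 change of KO FT over WT FT after PBS for cytokine receptors (left) and homing receptors and integrins (right) at 5 CPM or more, in males (red circles) and females (grey squares), with SE bars. In males most receptors lie to the right of 0, led by Il17rb, Il18r1 and Itga1, while the female values of Il17rb, Ccr9, Tgfbr2 and Il7r lie to the left.

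The receptor changes differed between the male and the female libraries. These libraries also differ in their level of Cd8a, so sex cannot be told apart here from cell content. In females, 3 of the 24 cytokine receptors were higher in KO FT and 8 were lower, beside 29.8% of all genes called, 14.9% in each direction. The difference between the male and the female change passed for 16 of the 24, and 15 of these were higher in males, where 42.8% of all genes differed, 21.1% higher and 21.7% lower. Il17rb changed by 0.95 in males and -0.40 in females, a difference of 1.35 ± 0.07 (adjusted p = 3.33e-12). Ccr9 changed by 0.76 in males and -0.60 in females, a difference of 1.36 ± 0.07 (adjusted p = 3.53e-12). For Il18rap the difference did not pass (0.81 in males and 0.47 in females, adjusted p = 0.0657), and for Il18r1 both changes were upward (0.94 and 0.45, adjusted p of the difference 0.0161). In males given aGC, 14 of the cytokine receptors were higher in KO FT and 4 were lower, where 46.5% of all genes passed, 24.2% higher and 22.4% lower, and of the homing genes 16 were higher and 4 were lower.

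Of 28 T cell transcription factor genes 12 were higher (42.9%), 3 were lower (10.7%) and 13 did not pass (median 0.13). Among all genes tested 21.1% were higher and 21.4% lower. Ahr, the aryl hydrocarbon receptor, which senses tryptophan metabolites of gut bacteria among other ligands (ENSMUSG00000019256.17, chromosome 12, 35497974 to 35535038), had 10.5, 12.8 and 8.45 CPM in KO FT and 2.63, 3.71 and 2.41 CPM in WT FT libraries. The lowest KO FT library was above the highest WT FT library, and the log2 change was 1.89 ± 0.19 (adjusted p = 6.83e-08). The mean of Ahr was 10.6 CPM in KO FT and 2.92 CPM in WT FT. It ran from 9.99 to 29.1 CPM in the other groups of the series, so WT FT males after PBS were the low group. In females the change was 0.26 and in aGC males -0.03, and neither passed, while the difference between the sexes did (1.63 ± 0.25, adjusted p = 1.66e-05). Bhlhe40, a factor needed for cytokine production in T cells, had 94.4, 96.4 and 100.3 CPM in KO FT and 52.7, 57.4 and 61.8 CPM in WT FT libraries (0.76 ± 0.09, adjusted p = 7.66e-07). Irf8 and Irf4, a pair of interferon regulatory factors that act in lymphocyte differentiation, were higher by 0.65 and 0.64 on the log2 scale. The 3 lower factors were Klf2, Id3 and Lef1, which mark naive or memory precursor cells (-0.59, -0.22 and -0.15). Lef1 no longer passed without KO FT library 3 or WT FT libraries 1 or 2 (adjusted p = 0.0908, 0.0591 and 0.0518).

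Interferon-stimulated genes, which type I interferon induces, were more often higher than lower. Of 52 genes 22 were higher (42.3%), 6 were lower (11.5%) and 24 did not pass (median 0.13), beside 21.1% and 21.4% of all genes tested. Among 37 antiviral effectors 19 were higher and 2 were lower. Among 15 sensors and signal genes 3 were higher and 4 were lower, which is close to the shares among all genes. The binding site of the interferon factor complex, the ISRE, was searched as GAAANNGAAA on both strands of the 250 bases before each start. It was found in 16 of the 39 list members with a promoter entry and in 3.46% of all 27025 genes with one. The 3 promoters below belong to members that rose and show the match in capitals in the stretch from 190 to 71 bases before the start, as the reverse complement where it lies on the opposite strand (RefSeq, GRCm38.p6).
Ifit3, chr19:34583339-34583458, plus strand: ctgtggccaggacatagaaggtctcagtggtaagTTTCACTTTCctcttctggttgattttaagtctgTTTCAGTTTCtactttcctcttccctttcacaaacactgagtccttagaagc
Rsad2, chr12:26456523-26456642, minus strand: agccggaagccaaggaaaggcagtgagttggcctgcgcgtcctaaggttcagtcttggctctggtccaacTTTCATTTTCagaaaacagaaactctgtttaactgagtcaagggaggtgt
Slfn5, chr11:82951912-82952031, plus strand: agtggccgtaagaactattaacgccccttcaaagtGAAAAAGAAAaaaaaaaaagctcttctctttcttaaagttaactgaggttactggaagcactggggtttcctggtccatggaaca
Ifit3, which binds to viral RNA sensors and their partners, had 93.5, 99.9 and 92.7 CPM in KO FT and 58.6, 59.5 and 58.8 CPM in WT FT libraries (0.70 ± 0.08, adjusted p = 2.27e-07). Its near-identical copy Ifit3b changed by 1.02, and the split of reads between the pair is uncertain. Rsad2, which encodes the antiviral enzyme viperin, had 12.2, 6.93 and 8.36 CPM in KO FT and 4.70, 3.05 and 3.85 CPM in WT FT libraries (1.21 ± 0.28, adjusted p = 0.00135). Slfn5, a member of the Schlafen family, had 26.1, 24.3 and 27.4 CPM in KO FT and 12.2, 11.0 and 9.57 CPM in WT FT libraries (1.25 ± 0.16, adjusted p = 2.73e-06). Dhx58, the RNA sensor LGP2, Oas2, a synthetase of the RNase L pathway, and Mx2 rose as well (0.96, 1.14 and 1.39).

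Irf7 and Irf9, transcription factors of the pathway, did not pass. They had 250.1 ± 4.20 and 187 ± 5.39 CPM in KO FT against 235 ± 14.7 and 181 ± 5.60 CPM in WT FT (adjusted p = 0.228 and 0.522). Usp18, which restrains interferon signalling, fell to 47.2, 45.4 and 46.3 CPM in KO FT, against 69.8, 70.0 and 72.7 CPM in WT FT libraries (-0.61 ± 0.06, adjusted p = 1.97e-08), and Ifih1, the sensor MDA5, changed by -0.84.

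Mx1, the antiviral GTPase gene that is disrupted in C57BL/6 mice, went against the list by a wide margin. It had 0.155, 0.0676 and 0.0889 CPM in KO FT and 11.0, 9.37 and 9.97 CPM in WT FT libraries, a log2 change of -6.65 ± 0.35 (adjusted p = 4.76e-12). The KO FT level rested on 5 counts over the 3 libraries, and it was 0.917% of the WT FT level (exact 95% interval 0.297% to 2.15%, counting error only). In the other 6 groups the mean of Mx1 ran from 2.99 to 17.7 CPM, and in females it was higher in KO FT (17.7 CPM against 7.91 CPM in WT FT, 1.16). The difference between the male and female changes was -7.81 ± 0.41 (adjusted p = 3.53e-12). Of 17 interferon-inducible GTPases, mostly targets of interferon gamma, 6 were higher (35.3%), 0 were lower and 11 did not pass. Among all genes tested 21.1% were higher and 21.4% lower. Gbp9 led the GTPases at 199.8, 200.4 and 199 CPM in KO FT and 113, 116 and 120.1 CPM in WT FT libraries (0.78 ± 0.07, adjusted p = 2.11e-08).

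More genes of the list passed upward in the other 2 contrasts. In females 33 of the 52 genes were higher in KO FT and 2 were lower, beside 14.9% of all genes in each direction. In aGC males 37 were higher and 3 were lower, beside 24.2% and 22.4% of all genes. The male and female changes differed for 27 genes, of which 6 were higher in males, beside 42.8% of all genes, 21.1% higher and 21.7% lower. Isg15, an interferon-induced ubiquitin-like protein, had 22.8 ± 1.80 CPM in KO FT and 21.5 ± 1.52 CPM in WT FT males, a change of 0.09 against 1.05 in females (difference -0.95 ± 0.17, adjusted p = 9.08e-05). The PBS and aGC comparisons in males share no libraries.

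Early genes of T cell receptor signalling were more often lower in KO FT males. Of 34 genes 7 were higher (20.6%), 18 were lower (52.9%) and 9 did not pass (median -0.17), beside 21.1% and 21.4% of all genes tested. Ier5, an immediate early gene, had 131, 115 and 121 CPM in KO FT and 191, 203 and 176 CPM in WT FT libraries (-0.64 ± 0.09, adjusted p = 8.20e-06). Myc, which drives growth after activation, had 186, 164 and 170.1 CPM in KO FT and 243, 226 and 227 CPM in WT FT libraries (-0.42 ± 0.07, adjusted p = 8.41e-05). Klf6 was lower by the same test (-0.34), and so were the NR4A receptor genes Nr4a2 and Nr4a3 at levels under 5 CPM (-1.94 and -1.21). The growth response factor Egr1, with 284, 282 and 290.1 CPM in KO FT and 223, 214 and 223 CPM in WT FT libraries, and the NF-κB cofactor Nfkbiz rose instead (0.37 and 0.44). Several of these genes respond to cell handling as well as to antigen. Hspa1b, an inducible heat shock gene with a near-identical copy in Hspa1a, had 3.02, 2.43 and 3.91 CPM in KO FT and 15.2, 13.6 and 15.3 CPM in WT FT libraries (-2.27), and the part of handling in the result was not tested.

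Effector genes changed in both directions, with more members lower than higher in each list. Of 24 cytokine and chemokine genes 4 were higher (2 without KO FT library 2 or WT FT library 1 or 2), 7 were lower and 13 did not pass. Ltb, the lymphotoxin chain of lymphoid tissue, had 1816, 1582 and 1656 CPM in KO FT and 2135, 2081 and 1975 CPM in WT FT libraries (-0.29), and Tnfsf8, which encodes CD30 ligand, 6.43, 7.57 and 8.18 CPM in KO FT and 14.9, 13.5 and 14.8 CPM in WT FT libraries (-0.96). Ccl1 fell to 0.591 ± 0.214 CPM in KO FT, against 5.40 ± 0.232 CPM in WT FT (-3.13, adjusted p = 6.51e-09), and Il10 was at 0 in all 6 libraries. Of 15 cytotoxic genes 2 were higher (1 without KO FT library 2 or WT FT library 1), 5 were lower and 8 did not pass, and Prf1, which encodes perforin, had 59.7 ± 4.18 CPM in KO FT and 64.2 ± 3.07 CPM in WT FT. Of 19 NK receptors 4 were higher, 6 were lower and 9 did not pass, with Cd226, an activating adhesion receptor, higher (0.29) and Klre1 lower (-0.99). The cytokine and chemokine list thus had 16.7% higher and 29.2% lower, the cytotoxic list 13.3% and 33.3%, and the NK receptors 21.1% and 31.6%. Among all genes tested 21.1% were higher and 21.4% lower.

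Costimulatory and inhibitory receptors were split. Of 20 genes 4 were higher (2 without WT FT library 1 or 3), 7 were lower and 9 did not pass. The shares of all genes tested were 21.1% higher and 21.4% lower. The higher share of the list was thus close to that of all genes, and the lower share was above it. Cd83, an activation marker of lymphocytes and dendritic cells, had 14.5, 11.6 and 11.4 CPM in KO FT and 33.8, 31.4 and 29.4 CPM in WT FT libraries (-1.35 ± 0.07, adjusted p = 8.69e-12). Tnfrsf4, which encodes OX40, had 13.6, 11.9 and 12.4 CPM in KO FT and 27.6, 29.3 and 27.8 CPM in WT FT libraries (-1.16 ± 0.12, adjusted p = 8.48e-08). Cd2, an adhesion receptor of T cells, was lower too (-0.58). Entpd1, the ectonucleotidase CD39, had 40.9, 47.4 and 52.4 CPM in KO FT and 23.9, 22.9 and 23.3 CPM in WT FT libraries (1.00 ± 0.11, adjusted p = 3.87e-07). Cd83 fell in all 3 contrasts, at -1.15 in females and -0.67 in aGC males, and its difference between the sexes did not pass (adjusted p = 0.125).

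Genes of DNA replication were higher for some steps and lower for others. Of 33 proliferation genes 11 were higher (33.3%), 8 were lower (24.2%) and 14 did not pass, beside 21.1% and 21.4% of all genes tested. Mcm2, a subunit of the replicative helicase, had 164, 154 and 163 CPM in KO FT and 105, 101 and 97.3 CPM in WT FT libraries (0.66 ± 0.05, adjusted p = 1.28e-09). Rrm2, the small subunit of ribonucleotide reductase, had 20.9, 25.2 and 26.2 CPM in KO FT and 8.48, 8.81 and 8.05 CPM in WT FT libraries (1.52 ± 0.13, adjusted p = 7.71e-09). Thymidine kinase 1 went the other way, with Tk1 at 7.36, 4.46 and 5.33 CPM in KO FT and 11.7, 11.0 and 10.1 CPM in WT FT libraries (-0.97), as did cyclin E1 (-0.88 for Ccne1). Mki67, the marker of cycling cells, was low in both groups at 2.11 ± 0.682 CPM in KO FT and 2.12 ± 0.209 CPM in WT FT and did not pass.

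Ribosomal protein genes and nuclear genes of oxidative phosphorylation were lower in KO FT males by small amounts. Of 47 ribosomal protein genes 0 were higher, 19 were lower (40.4%, or 11 genes without KO FT library 3) and 28 did not pass. Of 44 oxidative phosphorylation genes 0 were higher, 25 were lower (56.8%) and 19 did not pass, and each list had a median of -0.19. Among all genes tested 21.1% were higher and 21.4% lower. Rps16, a protein of the small subunit, had 149.7, 155 and 136 CPM in KO FT and 200.3, 188 and 198 CPM in WT FT libraries (-0.41 ± 0.09, adjusted p = 0.000548). Ndufb9, a subunit of complex I, had 107, 113 and 101 CPM in KO FT and 149.5, 133 and 138 CPM in WT FT libraries (-0.39 ± 0.06, adjusted p = 4.46e-05). These genes are short, and across 8438 genes at 10 CPM or more the change rose with summed exon length (Spearman's rho 0.231 across genes, which are not independent). In 5 equal bins of length, the median change was -0.15 in the shortest genes (up to 2448 bases) and 0.07 in the bin from 5186 to 7399 bases. With offsets for exon length, an alternative chosen after the data were seen, 12 ribosomal and 13 oxidative phosphorylation genes were lower and 1 oxidative phosphorylation gene was higher, with medians of -0.09 and -0.11. The cytokine receptors, with a median exon length of 4555 bases against 4376 for all genes at that level, had 14 higher and 3 lower genes there. Under these offsets Trac, Ltb, Nkg7 and Id3 no longer passed (adjusted p = 0.302, 0.0800, 0.215 and 0.208), while Il4, Cxcr3, Cxcr6, Trbv13-2 and Isg15 passed upward. In females the same 2 lists were mostly higher in KO FT (36 and 29 members higher, 2 and 0 lower, beside 14.9% of all genes in each direction), and the change fell with exon length (rho -0.226).

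**Figure D4:**
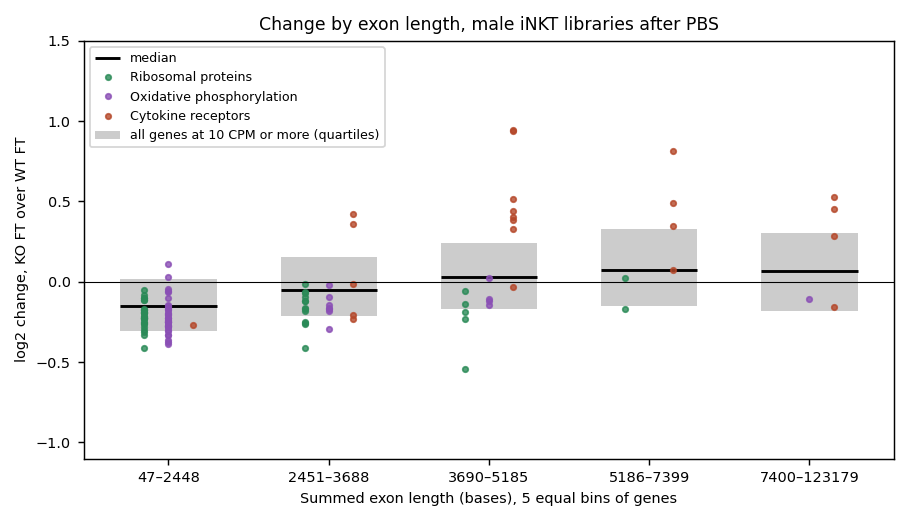
Log2 change of KO FT over WT FT in males after PBS by bin of summed exon length (5 equal bins) for genes at 10 CPM or more, where grey bars span the quartiles, black lines are medians and points are genes of 3 lists. The medians run from -0.15 in the shortest bin to 0.07 and 0.06 in the 2 longest, ribosomal protein and oxidative phosphorylation genes sit mostly in the shorter bins below 0, and cytokine receptors sit mostly above the bars.

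The largest rises among protein-coding genes at 10 CPM or more without overlap were of genes from many pathways. Among them were Sbf2, Cyb561, Susd2, Gm29609, Fbxl18, She, Bcr, Apc, Wdr25 and Ahr, with log2 changes of 2.51 down to 1.89. Sbf2, a pseudophosphatase of the myotubularin family, had 10.9, 13.5 and 12.2 CPM in KO FT and 1.71, 1.11 and 3.53 CPM in WT FT libraries (2.51 ± 0.43, adjusted p = 6.24e-05). Susd2 was also higher in KO FT males given aGC (2.81), and in females it did not pass (0.05).

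The 12 largest falls were Mx1, Lyz2, Pmepa1, Tns4, Foxp3, Znrf2, H2-Eb1, Hspa1b, Mcoln2, Taf4, Drc1 and Stx1a. Znrf2, a ubiquitin ligase gene, had 12.3, 11.3 and 12.5 CPM in KO FT and 63.8, 67.9 and 65.6 CPM in WT FT libraries (-2.46 ± 0.10, adjusted p = 2.23e-14). Pmepa1, an inhibitor of TGF-β signalling, had 5.42, 4.67 and 4.27 CPM in KO FT and 34.3, 38.1 and 33.4 CPM in WT FT libraries (-2.88 ± 0.14, adjusted p = 1.17e-12). Both fell in aGC males as well (-1.76 and -1.40). In females Znrf2 was higher in KO FT (0.25) and Pmepa1 did not pass (-0.07).

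Across all genes, the change between transplants at rest in male libraries and that in female libraries went in different directions more often than in the same one. Sex cannot be told apart here from the differing Cd8a levels of these libraries. Both tests passed for 2423 genes, of which 658 had the same sign (9.70% of the male calls and 13.8% of the female ones) and 1765 the opposite sign (26.0% and 37.1%). Across 8438 genes at 10 CPM or more the 2 changes had a Spearman's rho of -0.305, as a description across genes that share length. The difference itself passed for 6831 genes. With males given aGC, 3641 genes passed in both, 2547 with the same sign (37.5% of the PBS calls and 34.3% of the aGC calls) and 1094 with opposite signs, and the change differed between PBS and aGC for 6216 genes (39.0%, 18.8% higher and 20.2% lower with PBS). Cd8b1 was lower in KO FT males under both treatments (-1.15 with PBS and -0.88 with aGC), while Cd8a was lower with PBS and higher with aGC (-1.07 and 0.28). Of the 6 CD8 T cell genes 2 were higher and 2 were lower with aGC, where 24.2% of all genes were higher and 22.4% lower. Tgfbr2 was higher under both treatments (0.45 and 1.21). Klf2 and S1pr1 turned round, at -0.59 and -0.43 with PBS and 0.72 and 0.60 with aGC.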

How the data were processed

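RNA of iNKT cells was sequenced in 24 libraries, 3 for each transplant donor, treatment and sex. The deposited table holds estimated counts per gene, made by the authors with kallisto on GRCm38 or mm10, per the submitters' processing notes. Not given in the sources used here are the kallisto version, the annotation release, the summing of transcripts to genes, the sort gate and how many mice each library holds. The libraries were made with Nextera XT, which does not mark strand, per the labels' protocols, so a gene and its antisense partner cannot be told apart.

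The estimated counts were rounded to whole numbers. Genes passing filterByExpr (15953 of 55335) were fitted in all 24 libraries with 8 group means, TMM scaling and edgeR's quasi-likelihood test, with Benjamini-Hochberg adjustment at 0.05 over all genes tested, so the spread is shared over the groups with 16 residual degrees of freedom. Log2 changes are KO FT over WT FT, with SE taken as the change over the root of the F statistic. Levels are CPM on TMM-scaled libraries. In the 6 libraries 3 counts correspond to 0.108 to 0.283 CPM, and counting error alone is covered by that limit. The fit was tested on simulated data.

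Genes named are, by rule, the 12 largest rises and 12 largest falls among protein-coding genes that passed, reached 10 CPM and did not overlap, up to 6 passing and 4 other genes of each list, and 18 fixed markers. The other 41 tested genes named were chosen after their values were seen: Bcl2, Bcl2l1, Ccr10, Ccr6, Ccr7, Csf1r, Cxcr5, Dhx58, Egr1, H2-Oa, Hspa1a, Id3, Ifih1, Ifit3, Ifnar1, Ifnar2, Ifngr1, Il10, Il12rb1, Il27ra, Il2rg, Irf9, Isg15, Itgam, Klf6, Lck, Lef1, Myc, Nr4a2, Nr4a3, Prf1, S100a9, S1pr1, Satb1, Tgfbr2, Trac, Trbv1, Trbv13-2, Trbv29, Txk and Usp18. Some genes that the rule names are not reported here. The comparison and the lists were chosen with earlier results of these data known. Gene coordinates and exon lengths are from GENCODE M21, and promoters from RefSeq (GRCm38.p6).

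Replicate numbers did not pair the libraries (correlations of same-numbered deviations 0.18, -0.11 and -0.11). Across numbers, KO FT library 2 with WT FT library 3 had 0.22, KO FT library 3 with WT FT library 2 had 0.18, and the remaining pairs were negative. The positive correlations thus linked each KO FT library to a different WT FT library. Whether these pairs share a batch was not tested, and the block fits used the replicate numbers alone. No 2 libraries of a group agreed within sampling noise (chi-square per degree of freedom 4.59 to 7.44). Alternatives were a single-comparison fit, a replicate block, RLE and upper-quartile scaling, no filter, a filter at 10 CPM, DESeq2, limma voom, a 1.5-fold threshold, leaving out each library and offsets for exon length. Statistics ran in R 4.3.3 (limma 3.58.1, edgeR 4.0.16 and, for 1 alternative, DESeq2 1.42.0), and tables and figures in Python 3.11.15 (matplotlib 3.10.9, numpy 2.4.6, pandas 2.3.3).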

Additional observations from a re-analysis of the deposited data

Results flagged for a closer look

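The transplant effect at rest differed between males and females for 6831 of 15953 genes (42.8%) and between PBS and aGC in males for 6216 genes (39.0%), each by the test of the difference itself. Among the 155 tested genes named here, 119 differed between the sexes, and the 49 of them with a difference of at least 2-fold and a mean of at least 5 CPM are given below as the male minus the female log2 change. No explanation was tested for any of them.

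Among the 12 largest male falls, the differences were -7.81 for Mx1, -6.56 for Drc1, -4.57 for Lyz2, -4.14 for Tns4, -2.81 for Pmepa1, -2.81 for Hspa1b, -2.70 for Znrf2, -2.68 for Taf4, -2.22 for H2-Eb1, -2.06 for Stx1a and -1.70 for Mcoln2. Among genes of other cells and MHC class II, the differences were -3.01 for Igkc, -1.76 for Trav7-4, -1.64 for Cd74, -1.54 for H2-Aa, -1.53 for Dapl1, -1.33 for Cd8b1, -1.31 for Klre1, -1.22 for Itgae and -1.19 for H2-Oa. Among immune signal and effector genes, the differences were -1.69 for Usp18, -1.49 for Tnfsf8, -1.26 for Ccl5, -1.12 for Ifih1, -1.04 for Ifit3, -1.01 for Cxcr5 and -1.01 for Klf6. For Mx1 the change was -6.65 in males and 1.16 in females.

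Among the largest male rises, the differences were 3.08 for Gm29609, 2.88 for Fbxl18, 2.67 for She, 2.65 for Apc, 2.33 for Susd2, 2.08 for Cyb561, 2.06 for Bcr, 1.72 for Sbf2, 1.47 for Wdr25 and 1.63 for Ahr. Among receptors and iNKT subset genes, the differences were 1.68 for Itga1, 1.58 for Il23r, 1.36 for Ccr9, 1.35 for Il17rb, 1.12 for Ccr4, 1.00 for Tgfbr2, 1.08 for Entpd1 and 1.19 for Nt5e. Among other genes, the differences were 4.69 for Foxp3, 4.51 for Igha, 1.64 for Rrm2 and 1.28 for Hsph1. Foxp3 was at 0 in KO FT females and Drc1 at 0 in WT FT females, so the size of these 2 differences depends on the prior count of the fit.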

How the results depend on the processing

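The 6787 genes of the comparison became 5791 to 5992 when 1 of the 6 libraries was left out, 6852 with the 6 libraries alone, 6919 with DESeq2, 7230 with limma voom, 6834 and 6817 with RLE and upper-quartile scaling, 7675 without a filter and 6558 with offsets for exon length, which were chosen after seeing the data. A filter at 10 CPM, which tests fewer genes, left 4249 genes, and 4106 for the difference between PBS and aGC. Against a fold threshold of 1.5 the counts were 1797 in PBS males, 285 in PBS females, 1483 in aGC males, 2241 for the difference between the sexes and 2059 for that between treatments, where the share of higher genes was 36.7% in place of 48.1%, and 76.6% in place of 51.9% in aGC males. Without a filter it was 37.6% for the difference between treatments. Replicate numbers do not pair the libraries (correlations of same-numbered libraries 0.18, -0.11 and -0.11). KO FT library 2 with WT FT library 3 and KO FT library 3 with WT FT library 2 had 0.22 and 0.18. The fit with the replicate number as a block gave 6615 genes in 24 libraries and 6453 in 6, and the matching by positive correlations was not fitted.

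Of 155 named genes tested, 76 kept their call under every alternative that tested them, which was all 17 for 39 of them, and 60 of the others moved only against the fold threshold of 1.5. Without a filter Tbx21 and Bcl2 no longer passed. The 9 genes that did not pass but did so under at least 1 alternative were Cst3, Cxcr3, Cxcr6, Hspa1a, Ighm, Il4, Isg15, Itgb7 and Trbv13-2. Under offsets for exon length Tnfrsf18 had a change of 0.13 (adjusted p = 0.0459), against -0.01 without them. The cause of these changes was not tested. Depth limits genes near 3 counts, 0.108 to 0.283 CPM, and the libraries do not show whether a group's spread is that of mice.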

Other observations

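The counts of 5 further gene lists in KO FT males are to be read beside the 21.1% higher and 21.4% lower genes among all those tested. Immunoproteasome genes, which cut proteins into peptides for MHC class I, were lower: Psmb8 had 1169.5, 1104 and 1114 CPM in KO FT and 1347, 1338 and 1330.4 CPM in WT FT libraries (-0.25 ± 0.05, adjusted p = 0.000318), and Psmb9 and Psmb10 changed by -0.19 and -0.26. Of 18 class I genes 2 were higher (11.1%), 7 were lower (38.9%) and 9 did not pass. The count of higher genes was 4 without KO FT library 2 and 1 without any other library, and that of lower genes was 4 without WT FT library 2.

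Of the other 4 lists, the sterol, glycolysis and heat shock genes passed in either direction at a share close to that among all genes (42.5%). The list of the BCL2 family and cell death had a somewhat higher share. Of 17 genes of the BCL2 family and cell death 4 were higher (23.5%), 5 were lower (29.4%) and 8 did not pass. Fas, the death receptor, had 49.3, 52.7 and 54.2 CPM in KO FT and 38.5, 33.4 and 38.7 CPM in WT FT libraries (0.50 ± 0.08, adjusted p = 6.17e-05). The protective gene Bcl2 changed by 0.26, without passing when no filter was used (adjusted p = 0.0573), while Bax and Bcl2l1 were lower (-0.31 and -0.27). Of 18 sterol genes 5 were higher (27.8%), 2 were lower (11.1%) and 11 did not pass. Sqle, the squalene epoxidase, had 12.2, 12.7 and 13.7 CPM in KO FT and 20.8, 21.1 and 20.7 CPM in WT FT libraries (-0.70), and Cyp51, a later enzyme of the pathway, changed by 0.33. Of 20 glycolysis genes 5 were higher, 3 were lower and 12 did not pass, with Pdk1, a kinase that restrains pyruvate oxidation, at 189.7, 187 and 186 CPM in KO FT and 135, 135 and 142 CPM in WT FT libraries (0.45) and Eno1, an enolase, at -0.28. Of 15 heat shock genes 2 were higher, 4 were lower and 9 did not pass. Hsp90b1, a chaperone of the endoplasmic reticulum, changed by 0.36 and Hsph1 by 0.42, and in females 0 heat shock genes were higher and 10 were lower, beside 14.9% of all genes in each direction. Counts of these lists moved when 1 library was left out. Of the death genes 3 were lower without KO FT library 1 and 2 without KO FT library 3 or WT FT library 1 or 3. Of the sterol genes 3 were higher without KO FT library 2 or WT FT library 2 or 3, and of the glycolysis genes 3 were higher without KO FT library 1 or WT FT library 3 and 1 was lower without WT FT library 1.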
